A study of Mus musculus with 12 samples.

Results

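Arginine use was examined in mouse macrophages that had been polarized in opposite directions, through 8 genes that take up, break down, recycle or oxidize arginine or supply a cofactor for its oxidation. The genes were taken from a fixed list, by symbol, among the 19549 features of the deposited count tables, either with a row of their own or as one part of a joined name. All 8 were found and all 8 passed the filter on low counts, which left 10421 features. Of the 8, 7 genes (Arg1, Nos2, Gch1, Ass1, Asl, Slc7a1 and Slc7a2) had their own row. Arg2 was counted only in a joined feature with Vti1b, which encodes a vesicle fusion protein. The 2 genes overlap by 285 bases at chr12:79156017-79156301 in mm10, and their reads could not be told apart.

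Macrophages were grown from the bone marrow of female FVB mice and polarized for 4 h with IFNG (interferon gamma, 200 units/mL) or with IL4 (interleukin 4, 40 ng/mL). A part of the polarized cells was taken for total mRNA and the rest for polysome-associated mRNA, that is, the messages that a sucrose gradient separates with more than 3 ribosomes. The 4 groups of 3 libraries were IFNG polysome, IL4 polysome, IFNG total and IL4 total. All cells were given a cytokine, so every difference between polarizations is IFNG relative to IL4, and no untreated macrophages were analysed here. Separate mice or cultures are not stated for the replicates, so a p-value covers only the spread between these libraries, which may be technical.

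Macrophages can spend arginine in competing ways. The inducible nitric oxide synthase, encoded by Nos2, oxidizes arginine to nitric oxide and citrulline and needs tetrahydrobiopterin, whose synthesis starts with GTP cyclohydrolase, encoded by Gch1. Argininosuccinate synthase (Ass1) and argininosuccinate lyase (Asl) turn the citrulline back into arginine. Arginase, cytosolic from Arg1 and mitochondrial from Arg2, splits arginine into ornithine and urea, and the transporters of Slc7a1 and Slc7a2 carry arginine across the plasma membrane. In mouse macrophages Nos2 is a standard marker of activation by IFNG and Arg1 of activation by IL4.

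Start sites were available as RefSeq promoter windows on GRCm38.p6, the assembly behind mm10, for 3 of the 8 genes (Ass1, Gch1 and Slc7a1). Each window runs from 250 bases before to 50 bases after the annotated start. The windows of Ass1 and Gch1 are shown because these enzymes serve the recycling of arginine and the cofactor of its oxidation, and because their messages are compared between the polarizations below. Both are given 5′ to 3′ on the strand of the gene, with matches to the searched motifs in capitals. Ass1 has chr2:31470020-31470319 on the plus strand and Gch1 has chr14:47189364-47189663 on the minus strand.
Ass1: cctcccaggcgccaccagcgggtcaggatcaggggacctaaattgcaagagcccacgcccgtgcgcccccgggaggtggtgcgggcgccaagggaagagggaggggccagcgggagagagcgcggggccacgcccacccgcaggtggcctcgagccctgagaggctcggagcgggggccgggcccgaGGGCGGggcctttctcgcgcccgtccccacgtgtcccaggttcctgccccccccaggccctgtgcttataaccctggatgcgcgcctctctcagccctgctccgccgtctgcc
Gch1: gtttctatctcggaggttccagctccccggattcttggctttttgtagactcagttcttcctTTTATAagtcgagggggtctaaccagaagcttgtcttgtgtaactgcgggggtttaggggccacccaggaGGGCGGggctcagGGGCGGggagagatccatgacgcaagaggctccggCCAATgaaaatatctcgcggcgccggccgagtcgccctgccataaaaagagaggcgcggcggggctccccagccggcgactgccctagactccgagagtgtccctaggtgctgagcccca
The motifs reported, searched on both strands, were the STAT6 spacing, the core of the interferon-stimulated response element, GGGCGG (the GC box), CCAAT and TATAAA. Positions are those of the first matched base relative to the start. The Ass1 window held 1 GC box, at -63. The Gch1 window held 2 GC boxes, at -118 and -105, a CCAAT at -70, and a TATAAA on the opposite strand at -188. No match overlapped another. Among all 32817 promoter windows of the same length, GGGCGG occurred in 35.6%, CCAAT in 37.4% and TATAAA in 13.6%. The letters of the STAT6 spacing and of the response element core were in neither window, and over all windows they occurred in 6.94% and 3.43%.

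Total counts ranged from 3189688 to 8789480 in the IFNG polysome, 2563955 to 5546605 in the IL4 polysome, 10443200 to 22014162 in the IFNG total and 12348819 to 16603339 in the IL4 total libraries. Levels are CPM (counts scaled to a common library size with the TMM method), and 3 counts stood for 0.184 to 1.13 CPM. Lars2, a mitochondrial tRNA synthetase gene, took 1.78 to 29.3% of the reads of a polysome library and 0.341 to 2.00% of those of a total library, with the highest share in IFNG polysome replicate 3. All 10 macrophage markers, among them Csf1r and Adgre1, had reads in every group, and 4 of them were called higher with IFNG on polysomes and 2 in total mRNA. They summed to 10546 to 16347 CPM in IFNG polysome against 7832 to 8632 CPM in IL4 polysome libraries, and to 12489 to 24465 CPM in IFNG total against 7977 to 13904 CPM in IL4 total libraries. The 11 neutrophil markers, led by Csf3r, summed to 34.0 to 41.7 CPM in IFNG polysome against 16.3 to 23.4 CPM in IL4 polysome libraries, and to 48.1 to 58.2 CPM in IFNG total against 13.1 to 57.0 CPM in IL4 total libraries, with Ly6g and Elane at 0 on polysomes. The hepatocyte markers Alb, Apoa1, Ttr, Cps1 and Otc had no read in any library. Dendritic cell markers, 7 in number and led by Xcr1 where IFNG was given, summed to 17.7 to 44.7 CPM in IFNG polysome against 0.681 to 2.12 CPM in IL4 polysome libraries, and to 8.43 to 26.8 CPM in IFNG total against 0.551 to 2.03 CPM in IL4 total libraries, with Flt3 at 0 throughout. The 9 stromal and endothelial markers, led by Kdr, summed to 78.1 to 162 CPM in IFNG polysome against 14.5 to 36.6 CPM in IL4 polysome libraries, and to 23.9 to 64.9 CPM in IFNG total against 14.3 to 15.1 CPM in IL4 total libraries. On polysomes the summed levels of these 4 lists (macrophage, neutrophil, dendritic, and stromal and endothelial) were higher in every IFNG library than in every IL4 library, and their part in the results on polarization was not tested. In bulk samples such as these, fewer cells of a type and less RNA per cell cannot be told apart.

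**Figure D1:**
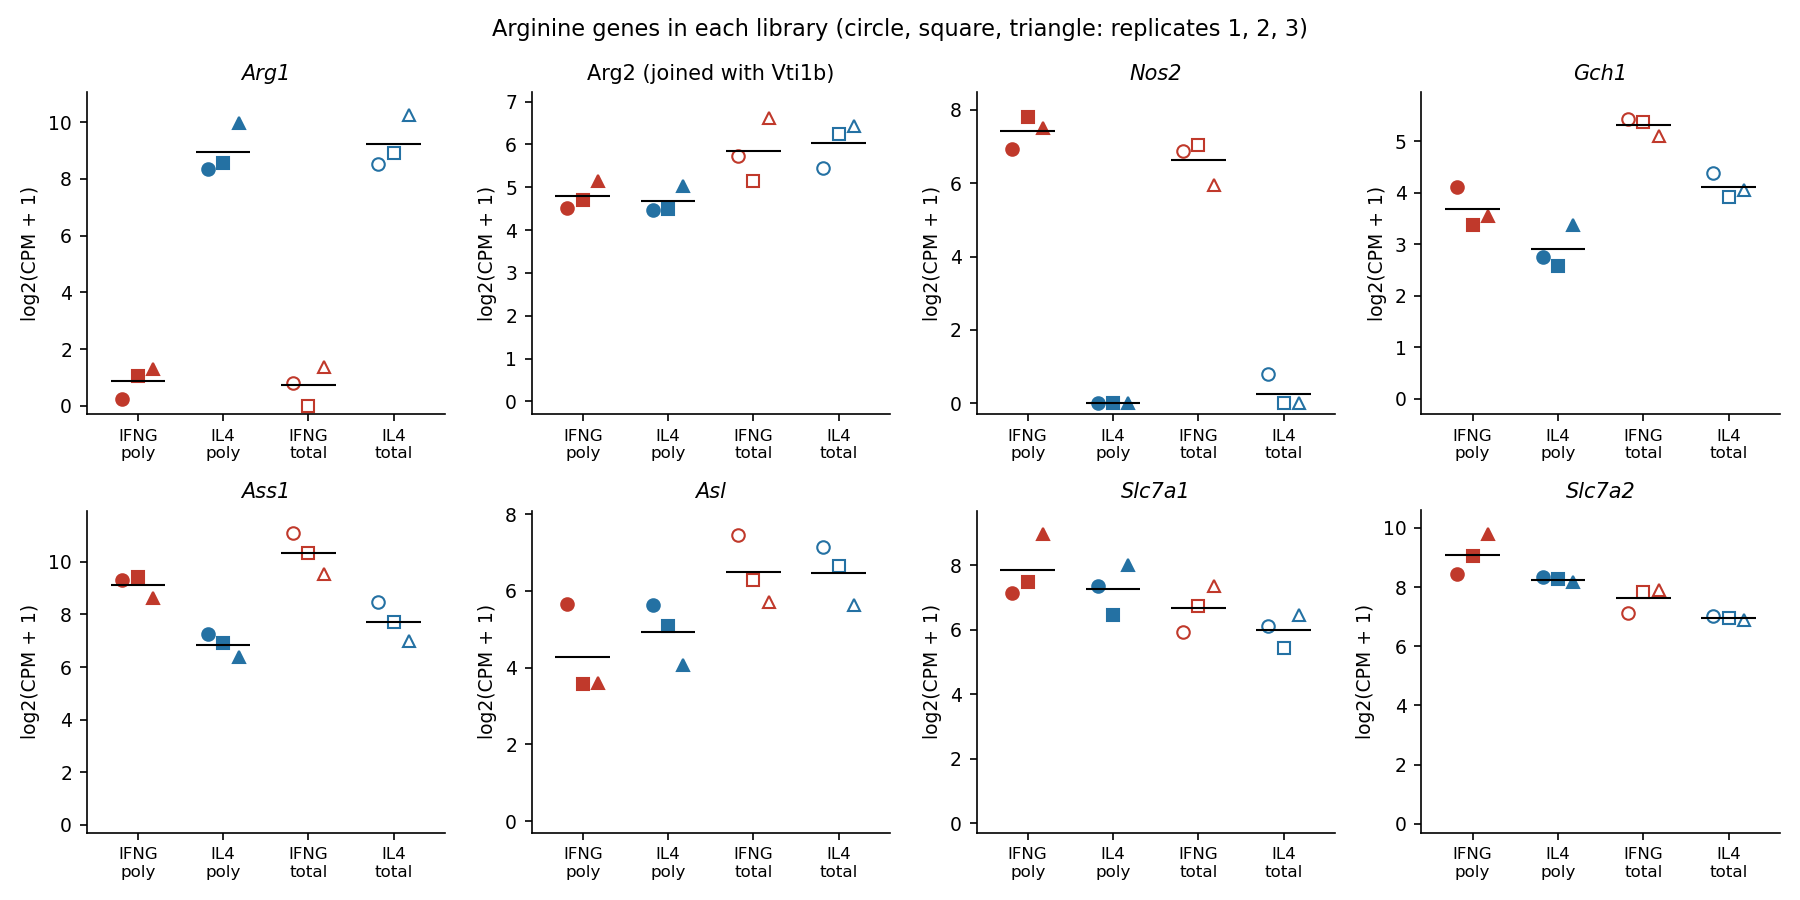
Level of each arginine gene in the 12 libraries, as log2(CPM + 1) on the vertical axis and the 4 groups on the horizontal axis. Filled symbols are polysome libraries, open symbols total libraries, red IFNG and blue IL4, and the line is the mean of 3 libraries. Arg1 and Nos2 separate the polarizations in opposite directions, while Asl and the joined Arg2 feature overlap between IFNG and IL4.

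Nos2 was abundant after IFNG and nearly or fully without reads after IL4. The gene lies at chr11:78920787-78960226. On polysomes it stood at 121, 225 and 182 CPM in the IFNG libraries, against 0 in all 3 IL4 libraries. Its level in total mRNA was 118, 130 and 60.7 CPM with IFNG, against 0.725, 0 and 0 CPM with IL4. All of the IL4 reads, 10 counts, came from total replicate 1. The polarizations therefore did not overlap in either fraction. On polysomes the mean of 176 ± 51.9 CPM (SD, n = 3) was at least 751-fold higher with IFNG than a floor of 3 counts over the IL4 group. That ratio was not itself tested. The edgeR quasi-likelihood test of IFNG against IL4 on polysomes gave an adjusted p of 5.3e-07. In total mRNA the log2 fold change was 8.75 ± 0.87 (SE, adjusted p = 4.8e-07), and without IL4 total replicate 1 the gene was at least 1102-fold higher against the same floor.

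Arg1 showed the reverse pattern. It lies at chr10:24915207-24927470. Its polysome level was 0.176, 1.05 and 1.48 CPM in the IFNG libraries, against 324, 375 and 1013 CPM in the IL4 libraries. In total mRNA it stood at 0.761, 0 and 1.55 CPM with IFNG, against 365, 483 and 1214 CPM with IL4. The IFNG values rest on 11 counts over the polysome libraries and 30 over the total libraries, and every IL4 library was far above every IFNG library. The level with IL4 was uneven, since replicate 3 held over double the Arg1 of the other replicates in both fractions. Arg1 fell by 9.62 ± 0.97 on the log2 scale on polysomes (SE, adjusted p = 4.4e-07) and fell by 9.72 ± 0.94 in total mRNA (adjusted p = 1.5e-07), which is 788-fold and 843-fold lower with IFNG. With 1 library left out, the log2 fold change of Arg1 ranged from -10.1 (without IFNG polysome replicate 3) to -8.84 (without IFNG polysome replicate 1) on polysomes and from -10.6 (without IFNG total replicate 3) to -9.02 (without IL4 total replicate 3) in total mRNA.

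Ass1, the first enzyme of the route from citrulline back to arginine, was several-fold higher with IFNG. It lies at chr2:31470270-31520670. On polysomes it stood at 627, 689 and 398 CPM with IFNG, against 153, 119 and 83.2 CPM with IL4. Total mRNA held 2177, 1278 and 751 CPM with IFNG, against 357, 208 and 126 CPM with IL4. The IFNG libraries all lay above the IL4 libraries of their fraction. Ass1 rose by 2.27 ± 0.49 on the log2 scale on polysomes (SE, adjusted p = 0.0028) and by 2.61 ± 0.50 in total mRNA (adjusted p = 0.00084).

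Asl, which completes that route, was not called in either fraction. It lies at chr5:130011258-130024381. Polysome libraries held 49.4, 10.9 and 11.1 CPM with IFNG, against 49.0, 33.3 and 15.9 CPM with IL4. In total mRNA it stood at 174, 77.1 and 51.5 CPM with IFNG, against 140, 98.6 and 48.4 CPM with IL4. The polarizations overlapped in both fractions, and replicate 1 was the highest library in every group. The log2 fold change was -0.44 on polysomes (95% interval -1.66 to 0.77, adjusted p = 0.69) and 0.07 in total mRNA (-1.12 to 1.27, adjusted p = 0.97). Changes anywhere within those bounds are compatible with these libraries. Without IFNG polysome replicate 1, the polysome value of Asl was -1.58 (adjusted p = 0.062), and with any other library left out it lay between -0.77 and -0.01.

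Gch1, which opens the synthesis of the cofactor of nitric oxide synthase, was higher with IFNG in every comparison of means but did not pass the test. It lies at chr14:47153895-47189413. Its polysome level was 16.4, 9.45 and 10.7 CPM with IFNG, against 5.72, 4.96 and 9.45 CPM with IL4, and the lowest IFNG library and the highest IL4 library had almost the same level. Its level in total mRNA was 42.3, 40.7 and 33.7 CPM with IFNG, against 20.0, 14.2 and 15.6 CPM with IL4, with a clear gap between the polarizations. The log2 fold change was 0.89 ± 0.44 on polysomes (SE, adjusted p = 0.19) and 1.23 ± 0.41 in total mRNA (adjusted p = 0.056). With the replicate number as a block, the total mRNA value was 1.25 with an adjusted p of 0.038, under the threshold of 0.05. DESeq2 also put it under the threshold, with an adjusted p of 0.021, and so did limma-voom.

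The transporter gene Slc7a2, whose product supplies arginine for nitric oxide production in activated mouse macrophages, leaned towards IFNG without passing the test. It lies at chr8:40862341-40922070. On polysomes it stood at 345, 530 and 889 CPM with IFNG, against 321, 305 and 287 CPM with IL4. Total mRNA held 137, 229 and 235 CPM with IFNG, against 129, 124 and 118 CPM with IL4. The IL4 libraries were tightly grouped in both fractions, and every IFNG library lay above them, the lowest only slightly. The log2 fold change was 0.95 ± 0.41 on polysomes (SE, adjusted p = 0.14) and 0.70 ± 0.41 in total mRNA (adjusted p = 0.37). Without IFNG polysome replicate 1, the polysome value was 1.22 and passed, with an adjusted p of 0.046. Without replicate 3 of that group, the library with 29.3% of its reads from Lars2, it was 0.60 (adjusted p = 0.45). With Lars2 left out of all libraries, it was 1.08 (adjusted p = 0.091).

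Slc7a1, the widely expressed transporter of the same family, lies at chr5:148327410-148399904. Polysome libraries held 140, 178 and 495 CPM with IFNG, against 161, 87.1 and 258 CPM with IL4. In total mRNA it stood at 59.8, 105 and 162 CPM with IFNG, against 67.7, 42.5 and 87.1 CPM with IL4. The polarizations overlapped in both fractions, and replicate 3 was the highest library in every group. The log2 fold change was 0.69 on polysomes (95% interval -0.38 to 1.76, adjusted p = 0.43) and 0.73 in total mRNA (-0.34 to 1.79, adjusted p = 0.50). The polysome value rested on IFNG replicate 3, and without that library it was -0.01 (adjusted p = 1.00).

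The joined feature of Arg2 and Vti1b, whose Arg2 part spans chr12:79130788-79156301, had similar levels in both polarizations. Its polysome level was 22.0, 25.2 and 34.3 CPM with IFNG, against 21.2, 21.6 and 31.8 CPM with IL4. Its level in total mRNA was 52.4, 34.4 and 97.7 CPM with IFNG, against 42.8, 74.9 and 85.2 CPM with IL4. The groups overlapped in both fractions. The log2 fold change was 0.13 on polysomes (95% interval -0.78 to 1.04, adjusted p = 0.89) and -0.14 in total mRNA (-1.02 to 0.75, adjusted p = 0.93), so neither a fall nor a rise of the mitochondrial arginase message could be read from these data.

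In all, 2 of the 8 genes (Nos2 and Ass1) were called higher and 1 (Arg1) lower with IFNG, both on polysomes and in total mRNA. Over all 10421 features tested, 7.54% were called higher and 6.58% lower on polysomes, and 7.08% higher and 3.93% lower in total mRNA. The median log2 fold change over all features was -0.06 on polysomes and 0.04 in total mRNA. Nos2, Ass1 and Arg1 were called in both fractions under each of 20 other settings, and a further higher gene, Gch1 in total mRNA or Slc7a2 on polysomes, was added under a few of them.

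**Figure D2:**
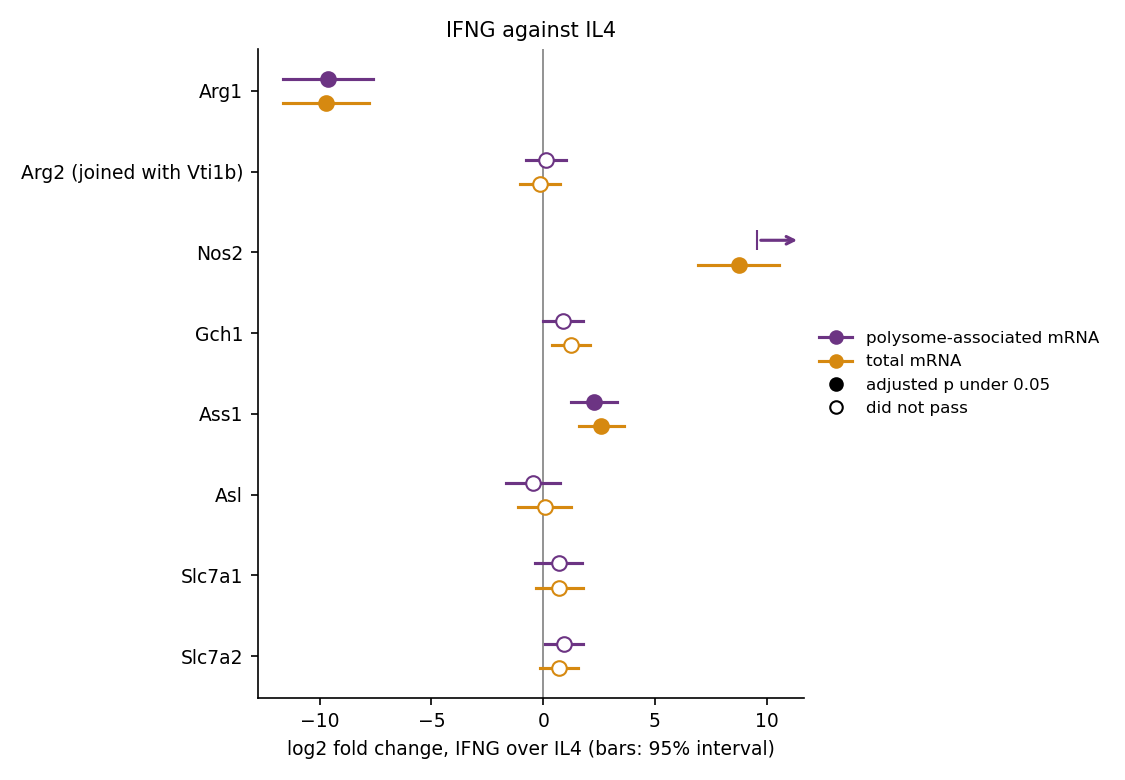
Log2 fold change of IFNG over IL4 for the 8 genes, with 95% intervals as bars, in polysome-associated (purple) and total mRNA (orange). Filled points had an adjusted p under 0.05, and the arrow of Nos2 on polysomes starts at the lower bound of 751-fold. Only Arg1, Ass1 and Nos2 have a filled point, or the arrow for Nos2 on polysomes, in both fractions. The intervals of Gch1 in total mRNA (0.38 to 2.07) and of Slc7a2 on polysomes (0.095 to 1.80) also lie above 0, but their points are open.

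The response to polarization was then compared between the fractions through the difference of the 2 fold changes, polysome minus total. Nos2 was set aside, and for none of the other genes did this difference pass the test. Of all features 0% were called by edgeR, against 176 features with an unadjusted p under 0.05, 1 call by DESeq2, 0 by limma-voom and 5 by edgeR without the filter. The difference was 0.10 for Arg1 (95% interval -2.43 to 2.63), -0.33 for Ass1 (-1.71 to 1.04), -0.34 for Gch1 (-1.57 to 0.89) and 0.25 for Slc7a2 (-0.95 to 1.45). It was -0.52 for Asl (-2.22 to 1.19), -0.04 for Slc7a1 (-1.54 to 1.46) and 0.26 for the joined Arg2 feature (-1.01 to 1.53). These intervals span over 2 log2 units each, so sizeable shifts of polysome association between the polarizations could have gone unseen. No difference is given for Nos2, which had no reads on IL4 polysomes. For Arg1 with IFNG, where the fractions held 11 and 30 counts, the interval reflects how few reads there were.

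A further comparison asked how much of each message was found on polysomes relative to the total mRNA of the same polarization. This is a relative measure, since each library is scaled to a common size with the TMM method. The transporters stood on one side and the enzymes of arginine recycling, cofactor synthesis and the joined Arg2 feature on the other. Averaged over both polarizations, a comparison added after the data were seen, Slc7a1 was higher on polysomes by 1.34 ± 0.37 on the log2 scale (SE, adjusted p = 0.0053) and Slc7a2 by 1.43 ± 0.29 (adjusted p = 0.00052). Asl was lower on polysomes, with a log2 fold change of -1.80 ± 0.42 (adjusted p = 0.0016), as were Gch1 with -1.49 ± 0.30 (adjusted p = 0.00043), Ass1 with -1.13 ± 0.33 (adjusted p = 0.0085) and the joined Arg2 feature with -1.32 ± 0.31 (adjusted p = 0.0016). Thus 2 genes were called higher and 4 lower on polysomes, where 22.6% of all features were called higher and 25.7% lower. Such calls were common in this comparison, with a median absolute log2 fold change of 0.89 over all features.

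Within a single polarization the same sides appeared, with fewer calls. With IFNG, Slc7a2 was called higher on polysomes (1.55 ± 0.42, SE, adjusted p = 0.010), and Gch1 (-1.66, adjusted p = 0.0070), Asl (-2.06, adjusted p = 0.016), Ass1 (-1.29, adjusted p = 0.048) and the joined Arg2 feature (-1.18, adjusted p = 0.049) were called lower. That is 1 gene higher and 4 lower, against 8.93% and 17.0% of all features. Slc7a1 stood at 1.32 with an adjusted p of 0.066, and passed under 7 of 21 other settings, among them either block on replicate number. With IL4, Slc7a2 was called higher (1.30 ± 0.41, adjusted p = 0.023), and Gch1 (-1.32, adjusted p = 0.026) and the joined Arg2 feature (-1.45, adjusted p = 0.019) lower, against 13.2% and 15.9% of all features. Slc7a1 (1.36, adjusted p = 0.054), Asl (-1.54, adjusted p = 0.054) and Ass1 (-0.96, adjusted p = 0.13) did not pass there. Asl with IL4 passed under 15 of 21 other settings, among them RLE scaling, DESeq2, no filter and Lars2 left out, and Slc7a1 with IL4 under 8. Both passed with either block on replicate number. Passing in one polarization and not in the other does not show a difference between them. The test of the difference above, which leaves out Nos2, called none of the genes, and it could have missed sizeable shifts. The calls with IFNG for Ass1 and the joined Arg2 feature were close to the threshold and were lost when any of several single libraries was left out. Ass1 kept its call under 9 of 21 other settings, and the joined Arg2 feature under 6 of 21. Without IFNG polysome replicate 3, only Gch1 among the 8 was still called with IFNG, and the same held without IFNG total replicate 1. With IL4, none of the 8 was called without IL4 polysome replicate 1, nor without IL4 total replicate 2. The averaged calls of these 6 genes passed under every other setting run.

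The messages of the opposed enzymes did not differ detectably between the fractions. Nos2 with IFNG averaged 176 ± 51.9 CPM on polysomes and 103 ± 37.0 CPM in total mRNA (SD, n = 3 each), and the log2 fold change was 0.77 (95% interval -0.45 to 2.00, adjusted p = 0.34). Arg1 with IL4 averaged 571 ± 384 CPM on polysomes and 687 ± 460 CPM in total mRNA, and the log2 fold change was -0.27 (-1.57 to 1.04, adjusted p = 0.77). Both genes overlapped between the fractions. With IL4 the 10 Nos2 counts were all in total mRNA and none on polysomes, too few for a fold.

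**Figure D3:**
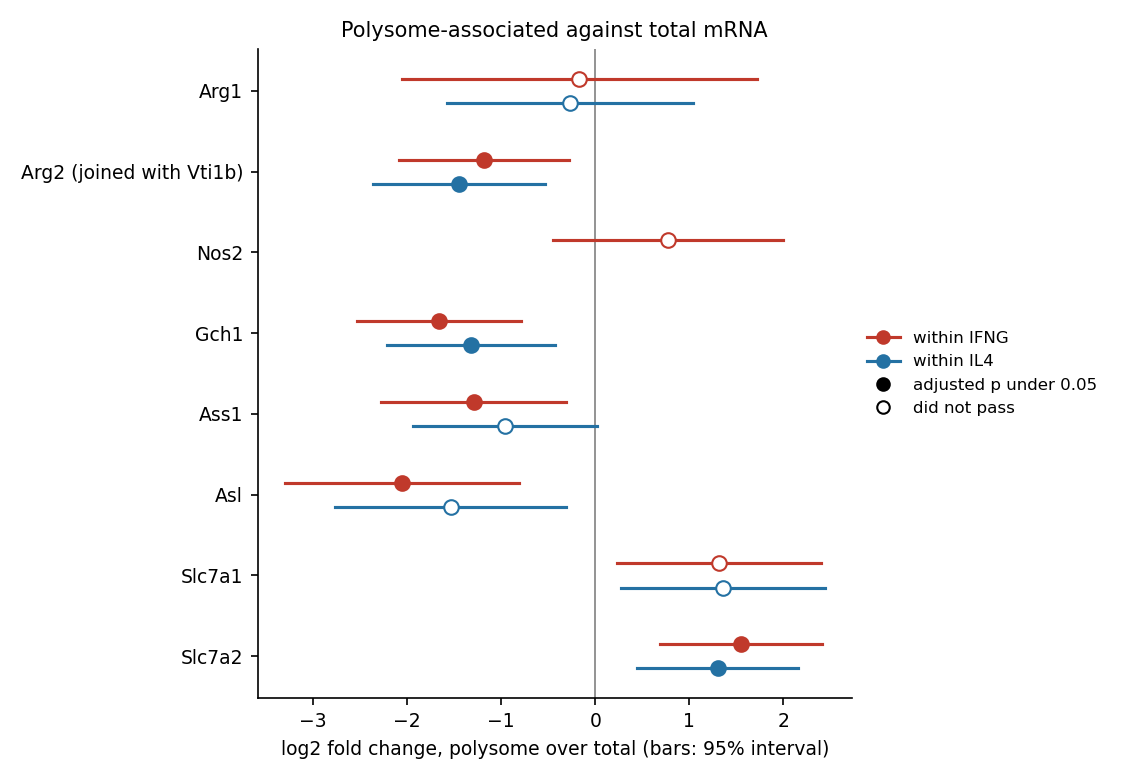
Log2 fold change of polysome-associated over total mRNA for the 8 genes, with 95% intervals as bars, within IFNG (red) and within IL4 (blue). Filled points had an adjusted p under 0.05, and Nos2 has no point within IL4. Slc7a1 and Slc7a2 lie to the right of 0, and Asl, Ass1, Gch1 and the joined Arg2 feature to the left in both polarizations.

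Calls between the polarizations were few among the other genes of arginine metabolism, as they were among all features. The 12 tested genes of the urea cycle and of ornithine use had 1 member lower and none higher in each fraction, where 6.58% of all features were lower on polysomes and 3.93% in total mRNA. On polysomes the count was 2 with the replicate block, 4 with DESeq2, 3 without the filter and 0 with limma-voom, and in total mRNA it was 0 without IFNG replicate 2 or 3 or IL4 replicate 1 or 2. The called member, Gamt, which methylates guanidinoacetate in creatine synthesis, averaged 3.78 ± 3.67 CPM with IFNG against 18.3 ± 12.2 CPM with IL4 on polysomes, and 16.6 ± 2.83 against 61.4 ± 21.0 CPM in total mRNA (SD, n = 3 each). Gamt fell by 2.15 on the log2 scale on polysomes (adjusted p = 0.017) and fell by 1.89 in total mRNA (adjusted p = 0.029). The median log2 fold change of these genes was -0.78 on polysomes and -0.30 in total mRNA. Of 8 tested transporters other than the 2 above, 1 was lower on polysomes and none was called in total mRNA. Pqlc2, which exports cationic amino acids from lysosomes, averaged 30.0 ± 7.87 CPM with IFNG against 82.0 ± 37.9 CPM with IL4 on polysomes, and fell by 1.46 (adjusted p = 0.043). In total mRNA its log2 fold change was -0.49 (adjusted p = 0.65).

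Among 6 tested genes of tetrahydrobiopterin synthesis and recycling other than Gch1, none was higher with IFNG, 2 were lower on polysomes and 1 was lower in total mRNA. Of all features, 7.54% were higher and 6.58% lower on polysomes, and 7.08% higher and 3.93% lower in total mRNA. Qdpr, which regenerates the cofactor after use, averaged 58.7 ± 21.9 CPM with IFNG against 237 ± 59.6 CPM with IL4 on polysomes, and 60.2 ± 20.6 against 173 ± 28.7 CPM in total mRNA. Qdpr fell by 2.01 on polysomes (adjusted p = 0.0024) and fell by 1.52 in total mRNA (adjusted p = 0.018). Spr, which catalyses the last step of synthesis, averaged 12.8 ± 9.05 CPM with IFNG against 51.1 ± 11.5 CPM with IL4 on polysomes, and fell by 1.95 (adjusted p = 0.013). Its log2 fold change in total mRNA was -1.18 (adjusted p = 0.15). With the replicate block Spr passed there, at -1.32 (adjusted p = 0.047), and the list then had 2 members lower in total mRNA. The list had a median of -0.88 on polysomes and -1.01 in total mRNA, on the opposite side of 0 from Gch1.

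Of 11 tested nitric oxide synthases, their partners and sensors other than Nos2, 1 was lower with IFNG in each fraction and none higher, beside the same shares of all features. In total mRNA the count was 2 with the replicate block, DESeq2, limma-voom and no filter, and 0 to 2 with 1 library left out. Ddah2, of the family that degrades methylated arginines, averaged 0.919 ± 0.805 CPM with IFNG against 10.2 ± 4.16 CPM with IL4 on polysomes, and 8.82 ± 5.99 against 36.4 ± 8.01 CPM in total mRNA. Ddah2 fell by 3.20 on polysomes (adjusted p = 0.0033) and fell by 2.04 in total mRNA (adjusted p = 0.026). None of 12 other enzymes that use arginine passed in either fraction. Prmt5, an arginine methyltransferase, had log2 fold changes of -0.31 on polysomes (adjusted p = 0.72) and -0.01 in total mRNA (adjusted p = 0.99). Among the genes named from these lists, the calls of Qdpr and Ddah2 on polysomes passed with any single library left out. In total mRNA the call of Qdpr was lost without IFNG replicate 2 (-1.33) and without IL4 replicate 2 (-1.37), and that of Ddah2 without any of 3 libraries (IFNG replicate 3, IL4 replicates 1 and 2). The calls of Gamt in both fractions and of Pqlc2 and Spr on polysomes were also lost when some single libraries were left out. On polysomes Gamt did not pass with limma-voom (-2.12), nor did Pqlc2 with limma-voom (-1.41) or with Lars2 left out (-1.33).

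Many of the regulators known to act on Nos2 or Arg1 were called, most of them higher with IFNG. Of 20 tested, 10 were higher and 1 lower with IFNG on polysomes, and 9 were higher and 1 lower in total mRNA, with medians of 1.30 and 1.26. Of all features, 7.54% were higher and 6.58% lower on polysomes, and 7.08% were higher and 3.93% lower in total mRNA, so a single lower regulator was near those shares. Irf1, a factor required for Nos2 induction in mouse macrophages, averaged 250 ± 111 CPM with IFNG against 16.5 ± 8.99 CPM with IL4 on polysomes, and rose by 3.93 (adjusted p = 4.1e-05). Batf2, of the AP-1 related family, rose by 4.40 on polysomes (adjusted p = 1.7e-06). In total mRNA Irf1 rose by 4.20 and Batf2 by 5.06. Hif1a, which drives Nos2 in mouse macrophages, rose by 1.76 on polysomes and 2.09 in total mRNA (adjusted p = 0.019 and 0.0063). The joined feature of Insl3 and Jak3, a kinase of the IL4 receptor complex, rose by 2.49 on polysomes and 1.79 in total mRNA (adjusted p = 0.0047 and 0.031). The lower gene was Klf4, a partner of STAT6 in mouse macrophages, named here after its values were seen. Klf4 averaged 2.15 ± 0.914 CPM with IFNG against 11.0 ± 5.24 CPM with IL4 on polysomes, and fell by 2.26 on polysomes (adjusted p = 0.0082) and fell by 1.98 in total mRNA (adjusted p = 0.012). No regulator was called lower on polysomes without IL4 replicate 2, nor in total mRNA without IFNG replicate 2, IL4 replicate 2 or IL4 replicate 3. On polysomes, 6 regulators were called higher without IL4 replicate 2. In total mRNA, 4 were called higher without IL4 replicate 2 and 5 without IFNG replicate 2. The call of Hif1a was lost without any of 3 polysome libraries (IFNG replicate 2, IL4 replicates 2 and 3) and without IL4 total replicate 2. That of the joined Jak3 feature in total mRNA was lost without any of 4 libraries, with a value of 1.15 without IFNG total replicate 2.

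**Figure D4:**
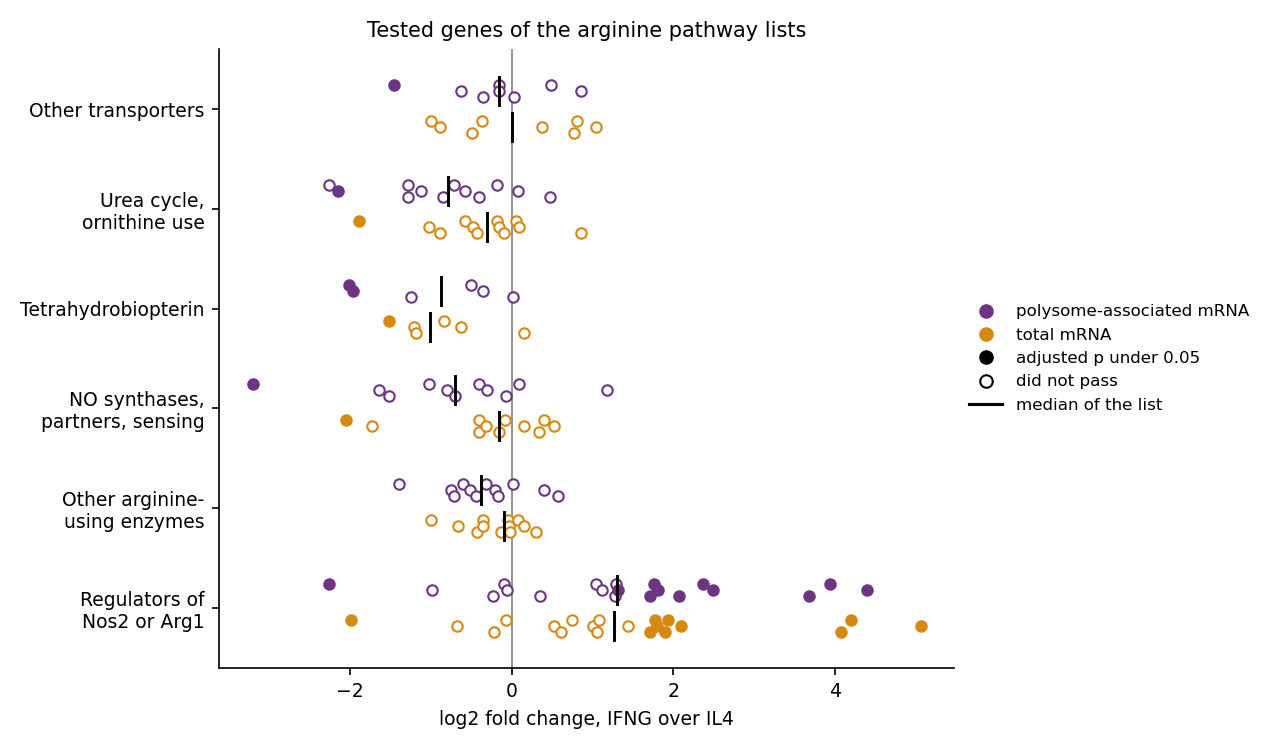
Log2 fold change of IFNG over IL4 for every tested gene of 6 lists around arginine metabolism, in polysome-associated (purple) and total mRNA (orange). Filled points had an adjusted p under 0.05 and the black line is the median of the list. The regulators have most of their filled points to the right of 0, while the filled points of the metabolic lists lie to the left.

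Over the 12 libraries, the genes whose levels were most like those of Nos2 were Mmp25 (a matrix metalloproteinase, r = 0.994), Slco3a1 (an organic anion transporter, r = 0.993), Cfb (complement factor B, r = 0.993), Syt17 (r = 0.992) and Lrrc4 (r = 0.989). Likeness was Pearson's r of log2(CPM + 1) with 6308 tested features of at least 10 CPM on average over the 12 libraries. The arginine genes, joined features and predicted genes (Gm numbers or Rik names) were left out. This r is a description, as the libraries fall into IFNG and IL4 clusters that fix most of it. Mmp25 averaged 380 ± 184 CPM with IFNG against 1.14 ± 0.082 CPM with IL4 on polysomes, and 206 ± 97.1 against 0.687 ± 0.598 CPM in total mRNA. Most like Arg1 were Rnase2a (a ribonuclease, r = 0.986), Mgl2 (a macrophage lectin, r = 0.984), Tmem26 (r = 0.979), Retnla (a secreted marker of IL4 activation, r = 0.975) and Msx3 (r = 0.971). Mgl2 averaged 12.2 ± 5.43 CPM with IFNG against 1338 ± 600 CPM with IL4 on polysomes, and 13.5 ± 4.04 against 832 ± 81.8 CPM in total mRNA.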

How the data were processed

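The deposited tables hold raw read counts by gene symbol, as their headers and whole-number values show. The authors' log2 column, present for 11006 features, equalled log2 CPM worked out from those counts at 1 size per library and served only as a check. Per the submitters' processing notes, HISAT2, HISAT, limma and the build mm10 were used, with no version. Which program counted the reads, with what annotation and strand setting, is not given in the sources used here. Positions and promoter windows come from RefSeq on GRCm38.p6.

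The test was edgeR 4.0.16 under R 4.3.3, with filterByExpr, TMM scaling and 1 robust quasi-likelihood model of 4 groups and 12 libraries. Adjusted p-values are Benjamini-Hochberg values over all 10421 features, with a threshold of 0.05, and the steps were checked on simulated data. Intervals are 95% intervals from the model, and floors of 3 counts cover counting error only. DESeq2 1.42.0, limma 3.58.1 (voom), RLE scaling, no filter, a filter at 10 CPM and leaving out Lars2 were alternatives. Others were only the groups compared, a replicate block and leaving out each library in turn. Between the fractions, a block by polarization and replicate number together was also run. The members and the lists were chosen with earlier results of these data known. All 8 members are named. A list is named by its called genes, at most 4 per comparison, or by its gene of highest mean CPM where none was called. A result that this rule would name is not reported here. Levels were otherwise not compared between genes, since transcript lengths were not used here.

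Replicate numbers are in the labels. Deviations of same-numbered IFNG and IL4 libraries correlated at 0.146 to 0.751 in total mRNA and at 0.160 to 0.370 on polysomes. All of these pairs were over 0.1, but so were some with different numbers. IFNG total 2 with IL4 total 1 stood at 0.406, and IFNG polysome 1 with IL4 polysome 2 at 0.240. Others were negative, down to -0.710 in total mRNA. The check therefore did not settle whether the numbers pair the polarizations within a fraction, and the main model held no block. Between the fractions not every same-numbered pair was over 0.1. In the replicate block a single term per number is shared by all groups, so it ties the fractions too. No block within each fraction was run. Libraries of a group differed by more than sampling noise.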

Additional observations from a re-analysis of the deposited data

How the results depend on the processing

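The calls of Nos2, Ass1 and Arg1 between the polarizations kept their direction and their side of the threshold under all 20 other settings in both fractions. Of 914 values of the 8 genes under other settings, 793 kept direction and side, 39 changed sign, 36 newly passed and 46 no longer passed. The cause of these changes was not tested. None of the 39 sign changes was in a called value.

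Between the polarizations, leaving out 1 library gave 237 to 481 features called lower in total mRNA, 496 to 1001 called higher on polysomes and 351 to 960 called lower there. The value of Asl in total mRNA was -0.0907 with a filter at 10 CPM, -0.00361 with the replicate block and -0.63 to 0.454 with 1 library left out. With 1 library left out, the joined Arg2 feature ranged from -0.679 to 0.0891 in total mRNA and from -0.00195 to 0.337 on polysomes, Slc7a1 on polysomes from -0.00775 to 1.12, and Prmt5 in total mRNA from -0.692 to 0.264.

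For the difference between the fractions, DESeq2 called 1 feature lower, and without the filter 1 was called higher and 4 lower. Slc7a1 there was 0.0032 with RLE scaling, 0.00346 with DESeq2, 0.218 with a filter at 10 CPM, 0.106 without Lars2 and -0.686 to 0.516 with 1 library left out. Leaving out 1 library gave -0.599 to 1.03 for Arg1, -0.0477 to 0.535 for Slc7a2, -0.799 to 0.271 for Ass1 and -1.66 to 0.242 for Asl.

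Polysome against total within IFNG, 2 of the 8 genes were called higher with DESeq2, without the filter, with a filter at 10 CPM and with the replicate block, and 0 to 2 with 1 library left out. Called lower were 2 with limma-voom, with a filter at 10 CPM and with only the groups compared, and 1 to 3 with 1 library left out. Features called higher numbered 483 with only the groups compared and 297 to 1201 with 1 library left out, and features called lower 935 to 2014. Arg1 there was 0.115 with DESeq2, 0.343 with limma-voom, 0.0151 with the replicate block, 0.0771 with a block by polarization and replicate number together and -0.644 to 0.693 with 1 library left out.

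Within IL4, 2 of the 8 were called higher with DESeq2, without the filter, with either block and with only the groups compared, 0 without Lars2, and 0 to 2 with 1 library left out. Called lower were 4 with only the groups compared and 0 to 3 with 1 library left out. Features called higher then ranged from 515 to 1471 and lower from 1004 to 2045, and Arg1 from -0.978 to 0.426. Averaged over the polarizations, Arg1 was 0.0395 with limma-voom and -0.578 to 0.178 with 1 library left out.

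Between the fractions the same-numbered libraries did not all deviate together (correlations of -0.083 to 0.443 with IFNG and 0.0095 to 0.411 with IL4). Polarized cells were split between the fractions, but the labels do not say that same-numbered libraries came from the same split. A block there therefore rests on a shared number only. With the replicate block, Slc7a1 passed within IFNG (1.19) and within IL4 (1.29), as did Asl within IL4 (-1.57). The block by polarization and replicate number together gave the same calls. Slc7a1 was 1.20 within IFNG (adjusted p = 0.019) and 1.28 within IL4 (adjusted p = 0.013), and Asl was -1.56 within IL4 (adjusted p = 0.0052). Between the polarizations, the replicate block changed the call of Gch1 in total mRNA and of no other of the 8. Depth limits Arg1 with IFNG and Nos2 with IL4, at 30 counts or fewer over a group.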
